A study of Mus musculus with 5 samples.

Results

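The SIBLING genes (small integrin-binding ligand, N-linked glycoproteins) are 5 secreted matrix protein genes, Ibsp, Spp1, Dmp1, Dspp and Mepe, that lie side by side on mouse chromosome 5. They were taken by symbol from the authors' table, where all 5 had a row among 23234 gene rows. The 5 genes were selected on their FPKM values in the contrast described here, where Ibsp was known to stand out, so their differences between the groups are a description and carry no test.

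The SIBLING proteins are acidic, heavily phosphorylated and glycosylated, and most are known from bone and tooth. They bind calcium and hydroxyapatite, and through an RGD sequence they bind integrins on the cell surface. Ibsp (bone sialoprotein) is a product of osteoblasts and mineralising cartilage, while Spp1 (osteopontin) is also made outside the skeleton, for example by activated macrophages and microglia. Dmp1 and Dspp serve dentine and bone mineral, and Mepe is an osteocyte product that acts on mineralisation and phosphate handling.

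RNA came from CD1 mouse embryos whose cortex had been electroporated in vivo at E12.5 and was harvested at E15.5 (embryonic days). One group received a construct that misexpresses the basic helix-loop-helix factor Ptf1a together with GFP (3 samples), and the other a construct with GFP alone (2 samples). Each sample pooled 3 to 6 brains, and GFP-expressing cells, labelled as pyramidal cells, were purified by cell sorting. The promoter of the construct is not given in the sources used here. The table holds a single merged FPKM value per group (fragment counts scaled to transcript length and library size). No spread between samples can therefore be given, and the only error is the one implied by the authors' own test. Reads of Ptf1a itself, from construct and endogenous gene alike, stood at 38.9 FPKM with the Ptf1a construct and 0.210 FPKM with GFP alone. Mef2c, a factor that cortical pyramidal neurons express, stood at 37.1 FPKM with Ptf1a, against 57.2 FPKM with GFP alone. In such sorted bulk samples, fewer cells of a type and less RNA per cell cannot be told apart.

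The windows just upstream of the genes are shown for Ibsp and Spp1, which were higher with Ptf1a. That of Mepe, which lies between them, was barely detected and had no test, is shown as well. Each is the 250 bases before the annotated start, on the plus strand of GRCm38.p6, from RefSeq, whose promoter table matched 4 of the 5 genes. Spp1 has a second annotated start, not shown. The windows are chr5:104299037-104299286 for Ibsp, chr5:104434861-104435110 for Spp1 and chr5:104325079-104325328 for Mepe. Capitals mark the motifs searched on both strands, listed after the sequences.
Ibsp: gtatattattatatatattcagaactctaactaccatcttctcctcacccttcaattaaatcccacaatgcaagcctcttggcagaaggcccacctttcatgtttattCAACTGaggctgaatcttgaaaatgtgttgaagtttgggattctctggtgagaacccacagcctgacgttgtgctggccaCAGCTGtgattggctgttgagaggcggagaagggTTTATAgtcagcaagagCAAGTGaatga
Spp1: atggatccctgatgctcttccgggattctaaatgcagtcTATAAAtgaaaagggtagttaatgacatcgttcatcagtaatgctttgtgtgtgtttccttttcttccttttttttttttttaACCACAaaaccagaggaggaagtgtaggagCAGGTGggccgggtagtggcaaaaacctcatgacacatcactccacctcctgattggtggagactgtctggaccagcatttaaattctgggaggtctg
Mepe: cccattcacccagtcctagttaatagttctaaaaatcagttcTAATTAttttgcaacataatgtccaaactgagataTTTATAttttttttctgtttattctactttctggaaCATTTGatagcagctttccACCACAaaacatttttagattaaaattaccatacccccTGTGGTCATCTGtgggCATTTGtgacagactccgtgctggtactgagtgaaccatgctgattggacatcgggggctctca

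Ptf1a binds DNA with an E protein at an E-box and, with Rbpj or its paralog Rbpjl, at a neighbouring TC-box. The E-box, searched as CANNTG, was found 3 times in the Ibsp window, starting 142, 62 and 11 bases before the start. It was found 3 times in the Mepe window and once in that of Spp1, 98 bases before the start. Of 32851 RefSeq windows of the same length 66.2% hold an E-box, so its presence sets none of the genes apart. The form CAGCTG, which is contained in the E-box pattern, occurred in the Ibsp window (62 bases before the start) and in 13.0% of all windows. It also occurred in the windows of both annotated starts of Dmp1, 85 and 129 bases before them. Dmp1 was barely detected in either group and had no test, so its response is not known. The form CACCTG, also contained in the E-box pattern, occurred in the Spp1 window, on the opposite strand, and in 17.2% of all windows. It also lay 92 bases before a Dmp1 start and was absent from the window of the second Spp1 start. The letters TTTCCC (TC-box) and TTCCCA (Rbpj site), which can overlap each other, were in none of the 3 windows shown and in 21.9% and 21.6% of all windows.

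The letters TATAAA occurred on the opposite strand 28 bases before the Ibsp start, as TTTATA, and in 12.4% of all windows. An inverted TATA box is a known feature of the rat Ibsp promoter. The same letters lay farther out in the other windows, 211 bases before the Spp1 start and 173 bases before that of Mepe. The Runx site, searched as ACCACA, was found once in the Spp1 window and at 2 places in that of Mepe, but not in that of Ibsp (14.0% of all windows hold it). The homeodomain letters TAATTA were found in the Mepe window and in 4.84% of all windows. They also lay 122 bases before the second Spp1 start. Each match is a run of letters and not a measured binding site. G and C made up 43.6% of the Ibsp and the Spp1 windows and 38% of the Mepe window, against a median of 52.4% over all windows.

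Ibsp showed by far the greatest change of the 5 genes. Its row (chromosome 5, 104728306 to 104740491, mm9) held 46.8 FPKM with the Ptf1a construct and 0.263 FPKM with GFP alone, a 178-fold difference. With Ptf1a its level was above that of 91.9% of all rows in the table, against 46.2% with GFP alone. On the log2(FPKM + 0.1) scale, which understates changes of weak genes, the difference was 7.01. Of the tested rows 12 had a greater difference on that scale. All 12 were microRNA or small nucleolar RNA rows listed at 0 with GFP alone, and 1 of them passed the authors' test.

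In the authors' deposited table, the log2 fold of Ibsp was 7.48 with a test statistic of 8.80. The ratio of these values implies a standard error of 0.85 on the log2 scale, and a normal 95% interval of 5.81 to 9.14. Among 2165 tested rows whose mean of the 2 group levels lay within 2-fold of its own, the median implied error was 0.27. Of these rows 99.4% had a smaller error than Ibsp. The rows were matched on that mean and not on the low GFP-only level of Ibsp. This matching therefore does not show whether its error is unusual for such a pair of levels. Of the rows nearest to Ibsp in both levels, Ptf1a had a log2 fold of 7.54 and a statistic of 7.43. Kirrel2, the next, had 7.15 and 11.9. The implied error was thus larger than that of Ibsp for Ptf1a and smaller for Kirrel2. The deposited p-value of 5e-05 and q-value of 0.000329 are the smallest in the table and were shared by 1803 tested rows, so they do not rank Ibsp among them. The two-sided normal p of its statistic was 1.3e-18. With the deposited p at that smallest value, the width of the normal interval cannot be checked against it.

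Spp1 (chromosome 5, 104864130 to 104870072, mm9) changed in the same direction and by much less. It held 10.8 FPKM with the Ptf1a construct and 1.54 FPKM with GFP alone, a 7.05-fold difference and 2.74 on the log2(FPKM + 0.1) scale. Its level was above that of 81.7% of all rows with Ptf1a and of 62.5% with GFP alone. The log2 fold in the authors' deposited table was 2.82, with a test statistic of 3.68 and a q-value of 0.0184. The implied standard error was 0.77, for a normal 95% interval of 1.32 to 4.32. Of 3106 tested rows matched on the mean level in the same way, 97.0% had a smaller error, with the same limit. The deposited p-value of Spp1, 0.00545, was also larger than the two-sided normal p of its own statistic (0.000232), so the normal interval is narrower than the authors' p implies. At a q threshold of 0.01 Spp1 was not called.

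The remaining 3 genes were barely detected and had no test. Dmp1 (chromosome 5, 104631636 to 104643121, mm9) stood at 0.0479 FPKM with Ptf1a and 0.124 FPKM with GFP alone. Dspp (104599731 to 104609146) stood at 0.00237 FPKM with Ptf1a and was listed at 0 with GFP alone. Mepe (104754348 to 104767630) was listed at 0 with Ptf1a and stood at 0.00608 FPKM with GFP alone. A 0 in this table can also be a failed estimate, since all 16 rows marked as having too much data were listed at 0 in at least 1 group, although none of the SIBLING rows carried that mark. The depth is unknown, so no detection limit can be given for these 3 genes.

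The 2 tested genes of the family were both marked as risen in the authors' table. Over all 11876 tested rows, 18.7% rose and 19.1% fell, and 37.7% were called in either direction. Because the contrast guided the choice of genes, nothing is read from the count.

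**Figure D1:**
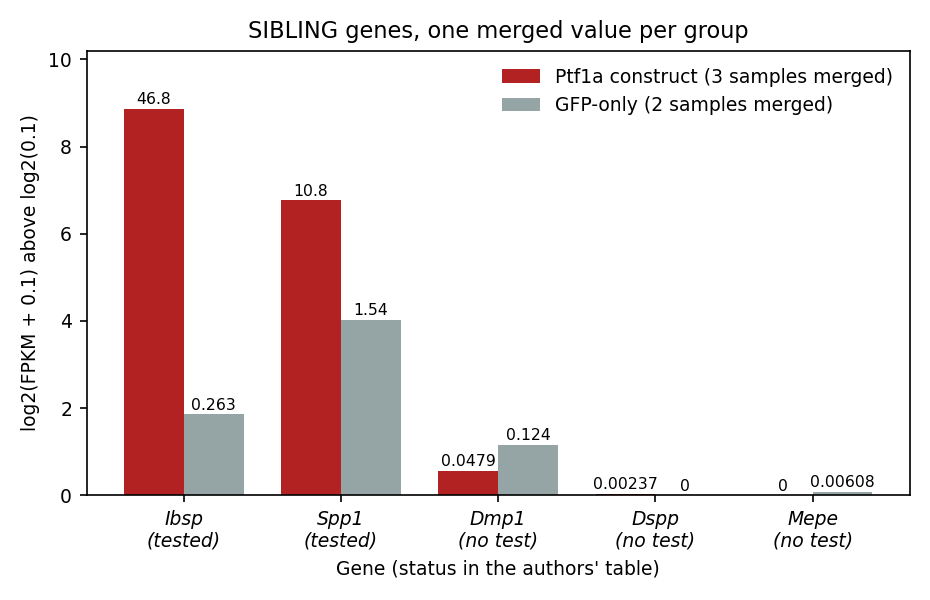
Merged group values of the 5 SIBLING genes, drawn as log2(FPKM + 0.1) above its value at 0 FPKM, with the FPKM printed over each bar. Red bars are the Ptf1a construct and grey bars GFP alone. No error bars can be drawn, because the table has 1 value per group. Ibsp reaches 46.8 FPKM and Spp1 10.8 FPKM with Ptf1a, while Dmp1, Dspp and Mepe stay at or under 0.124 FPKM in both groups.

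The order of the levels changed between the groups. With the Ptf1a construct it ran Ibsp, Spp1, Dmp1, Dspp and Mepe, and Ibsp stood 4.32 times as high as Spp1. With GFP alone it ran Spp1, Ibsp, Dmp1, Mepe and Dspp, and Spp1 stood 5.85 times as high as Ibsp. FPKM is scaled to transcript length, so these levels can be set beside each other. Whether neighbours in either order differ beyond the spread between samples cannot be said from merged values. In GENCODE M21 the longest coding transcript of Ibsp has 7 exons and 324 codons, and it is the gene's one coding transcript. Spp1 has 7 coding transcripts, so its value also depends on how the authors divided fragments among isoforms. A second GENCODE gene model of unproven status, Gm42793, overlaps Spp1 on the same strand, and no other row of the authors' table overlaps any of the 5 genes.

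The tested rows whose pair of group values lay nearest to that of Ibsp were sought by distance in the plane of log2(FPKM + 0.1), over the 2 group values. The nearest was Ptf1a itself, at a distance of 0.35. Next came Kirrel2, an adhesion protein of the nephrin family (0.55), with 57.1 FPKM with Ptf1a and 0.403 FPKM with GFP alone. Reg1, a secreted pancreatic protein, followed at 0.75, then the trypsinogen genes Try5 (1.31) and Prss2 (1.38). Try5, at 23.0 FPKM with Ptf1a and 0.105 FPKM with GFP alone, was not called by the authors' test (q = 0.0618 in the authors' deposited table). The neighbours of Spp1 were other genes: the class I histocompatibility gene H2-K1 (0.28), the pentraxin Ptx3 (0.34) and the pancreatic lipase relative Pnliprp1 (0.36). H2-K1 held 10.3 FPKM with Ptf1a and 1.87 FPKM with GFP alone. Likeness over 2 values is a likeness of level and change and no more.

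**Figure D2:**
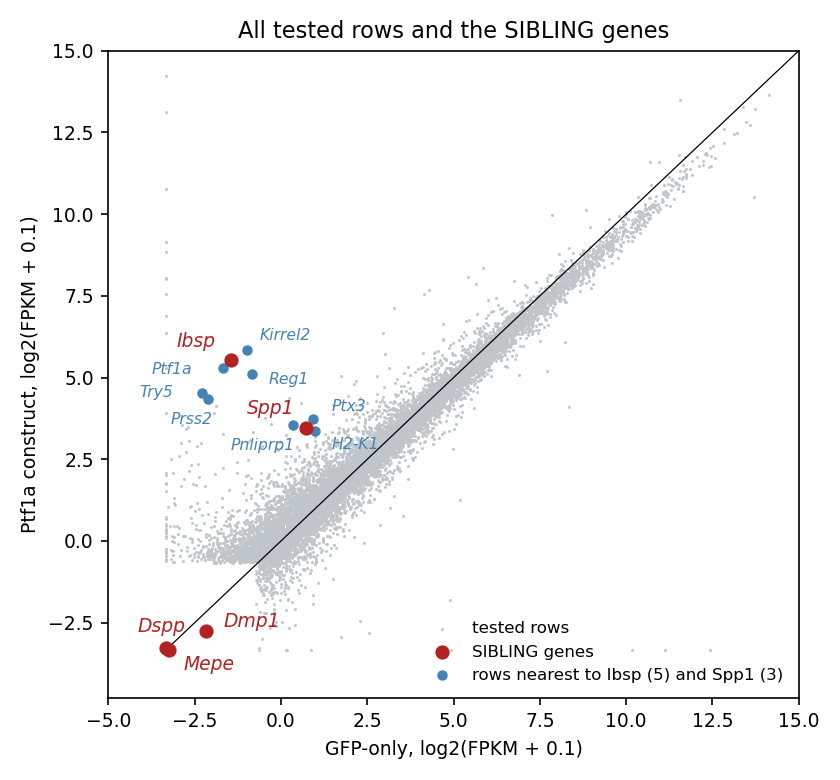
Each grey point is 1 of the 11876 tested rows, with the GFP-only value on the x axis and the Ptf1a value on the y axis, both as log2(FPKM + 0.1), and the line marks equal values. Red points are the 5 SIBLING genes, and blue points the rows nearest to Ibsp and Spp1. Ibsp lies 7.01 above the line, beside Ptf1a and Kirrel2, Spp1 lies 2.74 above it, and the 3 untested genes sit at the lower left end.

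The 5 genes span 270342 bases, and the 2 genes that were higher with Ptf1a are not adjacent in them. Going up the chromosome, the order is Dspp, Dmp1, Ibsp, Mepe and Spp1, all on the plus strand. Dmp1 ends 85184 bases before Ibsp begins, and Mepe begins 13856 bases after Ibsp ends, so the gene closest to Ibsp is one listed at 0 with Ptf1a. A further 96499 bases separate the end of Mepe from the start of Spp1.

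Outside the family, 24 other rows lay within 1000000 bases of the cluster. Of these 11 were tested, and 5 rose, 0 fell and 6 were not called, beside 18.7% risen and 19.1% fallen over all tested rows. Their median log2 difference was 0.02, against -0.01 over all tested rows. Of the other 13, none was tested. Sparcl1, a secreted relative of Sparc made by radial glia and astrocytes, ends 56623 bases before Dspp and rose, with 23.3 FPKM with Ptf1a and 11.0 FPKM with GFP alone. On the other side, 18403 bases past Spp1, begins Pkd2, which encodes the cation channel polycystin-2. Pkd2 rose, with 0.663 FPKM with Ptf1a and 0.387 FPKM with GFP alone.

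The unnamed models BC005561 and D930016D06Rik follow Pkd2. BC005561 rose, with 2.64 FPKM with Ptf1a and 1.35 FPKM with GFP alone, and D930016D06Rik rose, with 1.31 FPKM with Ptf1a and 0.607 FPKM with GFP alone. Slc10a6, a carrier of sulfated steroids, was called as risen, at 0.959 FPKM with Ptf1a and listed at 0 with GFP alone. The differences of Sparcl1, Pkd2, BC005561 and D930016D06Rik lay between 0.65 and 1.08 on the log2(FPKM + 0.1) scale, far below that of Ibsp. With calls from the adjusted normal p of the deposited statistic, Sparcl1 alone of these was called, and Slc10a6 had no statistic. The tested rows that were not called included Nudt9, an ADP-ribose hydrolase, at 23.7 FPKM with Ptf1a and 24.3 FPKM with GFP alone. The others were the kinase gene Mapk10, the Kelch-like gene Klhl8, Zfp951, the anion channel subunit gene Lrrc8b and 1700016H13Rik, whose differences ran from -1.38 to 0.02.

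**Figure D3:**
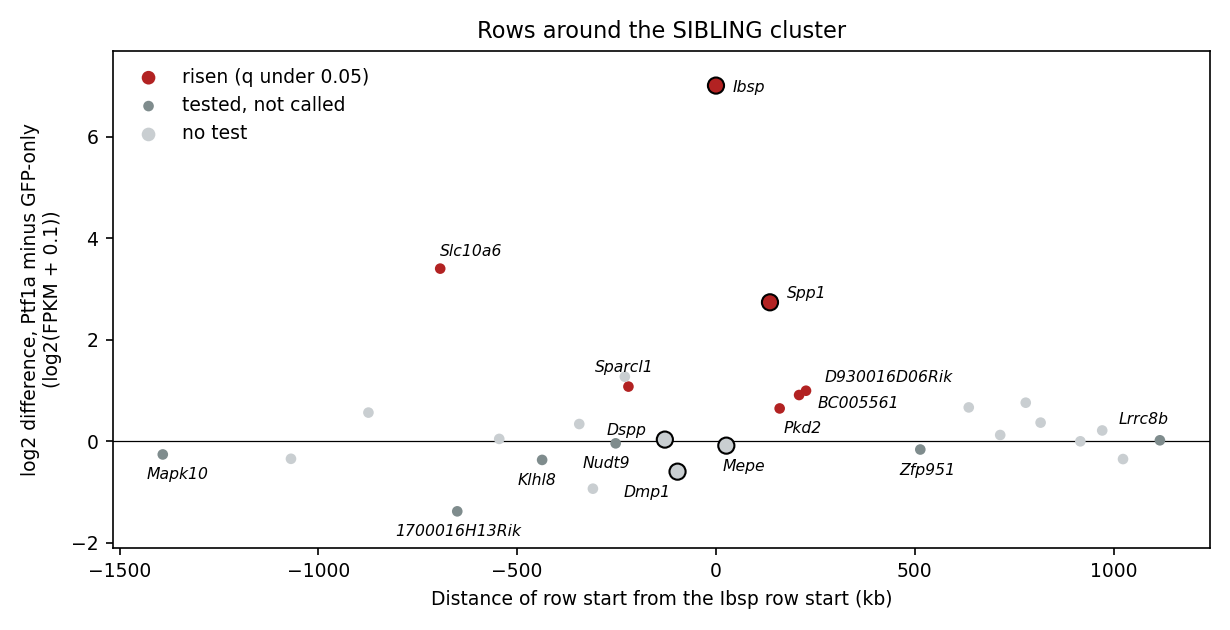
The 29 rows within 1000000 bases of the cluster, by distance of their start from the Ibsp start in kb (x axis) and log2 difference, Ptf1a minus GFP-only, on the log2(FPKM + 0.1) scale (y axis). Red points rose by the authors' test, dark grey points were tested and not called, and light grey points had no test. Black rims mark the SIBLING genes. Ibsp stands at 7.01 and Spp1 at 2.74, with Dmp1 and Mepe on either side of Ibsp below 0.

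Beside the family, 11 lists of bone and cartilage genes, SIBLING receptors and partners, and markers of other cell types were examined. Of their 127 genes 38 were tested, 13 rose and 8 fell, beside 18.7% risen and 19.1% fallen over all tested rows. With calls from the adjusted normal p, 6 rose (Sox9, Zfp521, Sparcl1, Itgb5, Col11a1 and Pdgfrb) and 0 fell. The median log2 difference over all tested rows, beside which each list's median is to be set, was -0.01. Among other bone and tooth matrix proteins, 5 of 15 were tested, of which 1 rose, 1 fell and 3 were not called, with a median log2 difference of -0.32. Sparc (osteonectin), which many tissues make, rose with 21.0 FPKM with Ptf1a and 16.4 FPKM with GFP alone. Dcn, the collagen-binding proteoglycan decorin, fell, with 1.79 FPKM with Ptf1a and 3.11 FPKM with GFP alone. Omd and Bgn, a pair of small leucine-rich proteoglycans, were not called. Several defining osteoblast genes, chosen after their values were seen, had no test. Col1a1, the main bone collagen gene, stood at 0.0892 FPKM with Ptf1a and 0.0423 FPKM with GFP alone, and the osteocalcin gene Bglap was listed at 0 with Ptf1a and stood at 0.178 FPKM with GFP alone.

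Of 14 bone transcription factors 6 were tested, 3 rose and 3 fell, beside 18.7% risen and 19.1% fallen over all tested rows. Their median difference was 0.30. The risen ones, Zfp521, Sox9 and Dlx5, also act in neural tissue, Sox9 in radial glia and Dlx5 in forebrain interneurons. Sox9 held 7.15 FPKM with Ptf1a and 2.48 FPKM with GFP alone, and Dlx5, which activates Ibsp in osteoblasts, 7.62 FPKM with Ptf1a and 3.94 FPKM with GFP alone. Zfp521 held 1.18 FPKM with Ptf1a and 0.270 FPKM with GFP alone. With the adjusted normal p, Sox9 and Zfp521 alone of this list were called, and Dlx5 was not. Mef2c fell. The factors that define the osteoblast lineage, chosen after their values were seen, were nearly absent and untested. Runx2 stood at 0.0827 FPKM with Ptf1a and 0.0503 FPKM with GFP alone, and Sp7 (osterix) at 0.00551 FPKM with Ptf1a and 0.0420 FPKM with GFP alone.

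Of 14 mineralisation enzymes and phosphate regulators 5 were tested, 0 rose, 2 fell and 3 were not called, with a median difference of -0.60. The shares over all tested rows were 18.7% risen and 19.1% fallen. Fam20c, the Golgi kinase that phosphorylates the SIBLING proteins, fell, with 6.66 FPKM with Ptf1a and 11.0 FPKM with GFP alone. The phosphate carrier gene Slc20a1 also fell, with 3.99 FPKM with Ptf1a and 6.08 FPKM with GFP alone. Ank and Slc20a2 were not called.

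The SIBLING genes belong to the wider family of secretory calcium-binding phosphoproteins, with the enamel and milk casein genes. The list made for that family held 14 genes outside the SIBLING group, of which 2 were tested, Sparc and Sparcl1. These are relatives of the family rather than members, and both are also described above. Both rose, beside 18.7% over all tested rows (median 0.72), and with the adjusted normal p Sparcl1 alone was called. The other 12, among them the enamel and casein genes, were untested with at most 0.216 FPKM, and 6 were listed at 0 in both groups. Of 11 cartilage genes 2 were tested and both rose, beside 18.7% over all tested rows (median 1.40, or 0.61 with a pseudocount of 1). They were the fibrillar collagen genes Col11a1, with 1.46 FPKM with Ptf1a and 0.409 FPKM with GFP alone, and Col2a1, with 0.629 FPKM with Ptf1a and 0.220 FPKM with GFP alone. In all, 10 of the 11 stayed under 1 FPKM in both groups, and Col11a1 alone was called with the adjusted normal p or a minimum of 1 FPKM.

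Receptors of the SIBLING proteins were present at low levels. Of 11 genes, RGD-binding and related integrin subunits and the hyaluronan receptor Cd44, 3 were tested and all 3 rose, beside 18.7% over all tested rows (median 1.46, or 0.61 with a pseudocount of 1). With the adjusted normal p, 1 of the 3 (Itgb5) was called. Itgb5, the beta subunit of a vitronectin and osteopontin receptor, held 2.90 FPKM with Ptf1a and 0.567 FPKM with GFP alone. Itgb8 held 0.961 FPKM with Ptf1a and 0.284 FPKM with GFP alone, and Itgb1 3.84 FPKM with Ptf1a and 2.90 FPKM with GFP alone. Itgav, the alpha subunit that pairs with Itgb5 and Itgb8, had no test and was chosen after its value was seen (0.340 FPKM with Ptf1a and 0.207 FPKM with GFP alone). Of 11 proteases and partners of SIBLING proteins 3 were tested, 1 rose, 1 fell and 1 was not called (median 0.25). Over all tested rows 18.7% rose and 19.1% fell. The membrane protease gene Mmp14 rose, with 4.76 FPKM with Ptf1a and 2.73 FPKM with GFP alone. Bmp1, the protease that cleaves the Dmp1 and Dspp proteins, fell, with 3.78 FPKM with Ptf1a and 4.94 FPKM with GFP alone, and Furin was not called.

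Markers of other cells that could carry SIBLING transcripts into the sort were set beside Ibsp and Spp1. Of 15 microglia and macrophage markers 8 were tested, 0 rose, 1 fell and 7 were not called (median -0.17). Over all tested rows the shares were 18.7% risen and 19.1% fallen. The summed level of the 15 markers was 15.7 FPKM with Ptf1a and 19.3 FPKM with GFP alone, with no marker at 0 in either group. Tyrobp, a signalling adaptor of myeloid cells, fell, with 1.85 FPKM with Ptf1a and 4.90 FPKM with GFP alone, and the complement genes C1qa and C1qb were not called. The myeloid receptor gene Trem2, chosen after its values were seen, had the greatest difference of the list, 3.30 on the log2(FPKM + 0.1) scale. It stood at 1.01 FPKM with Ptf1a and 0.0124 FPKM with GFP alone and was not called (q = 0.381 in the authors' deposited table). Cd68 and Fcer1g, also chosen after their values were seen, were not called, with differences of 0.54 and 0.25. The remaining tested markers, Aif1 and C1qc, likewise named after their values were seen, were not called, with differences of -0.77 and -0.38. Those of C1qa and C1qb were 0.03 and -0.37. All 9 osteoclast markers were untested and under 1 FPKM, summing to 0.745 FPKM with Ptf1a and 0.691 FPKM with GFP alone, and Atp6v0d2, named for that after its values were seen, was at 0 in both groups.

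Of 11 meningeal and mesenchymal markers 5 were tested, 1 rose, 1 fell and 3 were not called (median -0.58). Over all tested rows 18.7% rose and 19.1% fell. The summed level of the list was 10.7 FPKM with Ptf1a and 12.8 FPKM with GFP alone. The pericyte receptor gene Pdgfrb rose, with 1.20 FPKM with Ptf1a and 0.0286 FPKM with GFP alone, Dcn fell, and Ptgds and Vtn were not called. None was at 0 in both groups, and Foxc1 and Foxd1, named for that after their values were seen, were at 0 with GFP alone. Of 7 endothelial markers 2 were tested, Esam rose and Cldn5 was not called (median 0.94), and none was at 0. These calls too stand beside 18.7% risen over all tested rows. The endothelial sum was 6.44 FPKM with Ptf1a and 3.95 FPKM with GFP alone. The part of the microglial, pericyte and endothelial markers in the values of Ibsp and Spp1 was not tested.

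**Figure D4:**
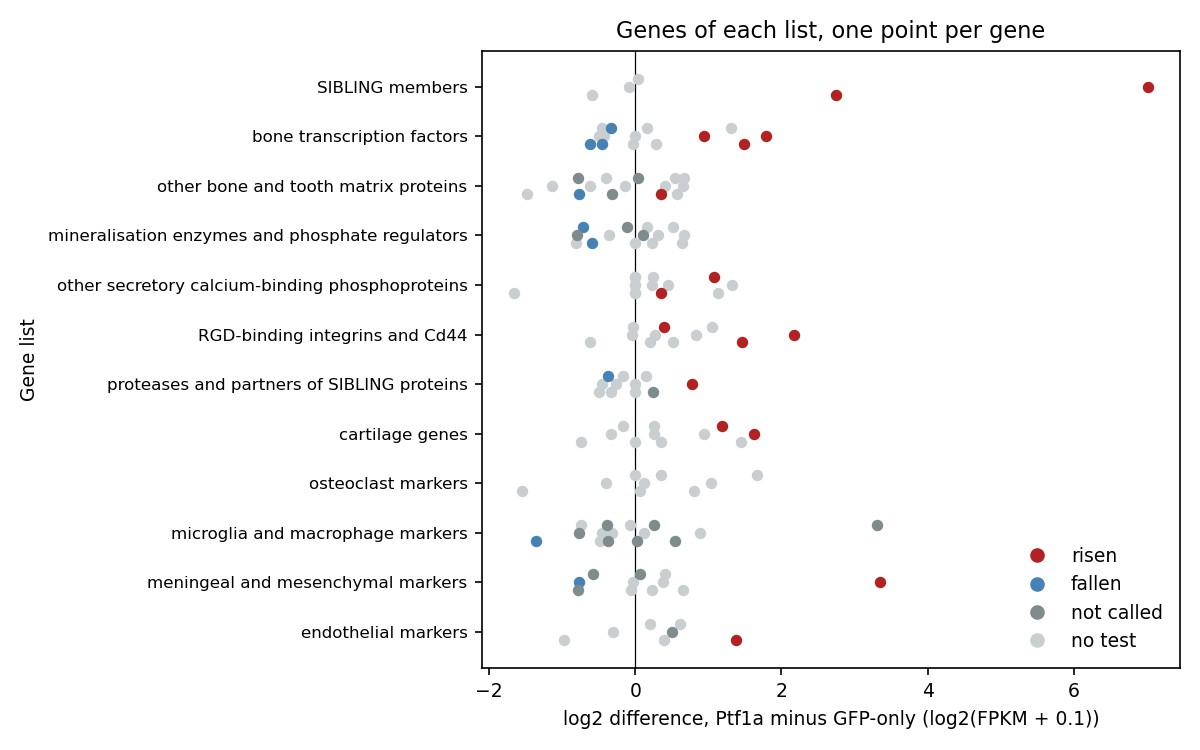
Log2 difference, Ptf1a minus GFP-only, on the log2(FPKM + 0.1) scale (x axis) for each gene of the SIBLING group and of the 11 other lists (y axis), coloured by the authors' test. Vertical scatter within a list has no meaning. Ibsp, at 7.01, lies to the right of every other listed gene, and bone matrix, mineralisation and osteoclast genes lie on both sides of 0.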

How the data were processed

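RNA was amplified from 2.1 to 7.8 ng with a low-input kit and read in 50 bp pairs, per the labels' protocols. The authors used CASAVA (1.8.2), Cufflinks (2.1.1), TopHat2 (2.0.8) and Cuffdiff, in no stated order, with build mm9, per the submitters' processing notes; annotation and parameters are not given in the sources used here. The authors' table holds 1 merged FPKM value per group, the log2 fold (Ptf1a over GFP-only, headed PIG and GFP), a test statistic (a signed score) and p-values and q-values, per the file headers. PIG was read as the Ptf1a construct, being the only group beside GFP. Merged values average several libraries, so no whole-read step was recoverable and depth per sample is unknown. Whether samples came from separate litters is not stated.

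Calls are a deposited q under 0.05, which matched the authors' mark in every row; recomputed Benjamini-Hochberg values agreed within 5.2e-07. Python 3.11.15, numpy 2.4.6, pandas 2.3.3 and scipy 1.17.1 were used, and the adjustment was tested on simulated data. Starts are printed counting from 1. The 11 lists and the 5 members were chosen with earlier results of these data known. The genes named are the members, Ptf1a, tested neighbours within 1000000 bases, the nearest rows, and from each list up to 4 called genes with the largest difference and 2 uncalled ones with the highest level. A few further genes, marked as such in the text, were picked with their values known. Symbols older than the lists were matched through RefSeq synonyms (2 genes). A comparison of the proteins was not made, and 1 listed gene is not reported here by name. Alternatives covered pseudocounts, centring, q thresholds, an FPKM minimum, the window and calls from the normal p of the statistic.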

Additional observations from a re-analysis of the deposited data

How the results depend on the processing

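No paired analysis was possible because the table holds 1 merged value per group, and for the same reason no sample could be left out. With a pseudocount of 1 the log2 difference of Ibsp was 5.24 in place of 7.01, while that of Spp1 moved by less than its implied error under every pseudocount and centring tried. At a q under 0.01, 1 member (Ibsp) was called as risen in place of 2. With calls from the adjusted normal p of the test statistic, which gave 392 risen and 332 fallen rows in place of 2217 and 2263, both Ibsp and Spp1 were called. Under those calls 1 neighbouring gene (Sparcl1) rose in place of 5, Slc10a6 having no statistic, and over the 11 lists 6 genes rose and 0 fell in place of 13 and 8. With at least 1 FPKM in either group, 3 neighbours rose, since Slc10a6 and Pkd2 fall under that minimum. At a q under 0.1, 2 neighbours were called as fallen in place of 0. Within 250000 bases of the cluster 4 of the 5 tested neighbours rose at a q under 0.05, beside 18.7% over all tested rows. The other settings were not combined with that window. The cause of these changes was not tested. No pseudocount or call setting can turn a direction around, so the directions were not put to a test here. Of the single-list values and the 3 untested members, 102 stayed and 25 moved.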
